A study of Homo sapiens with 13 samples.

Results

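The POU factors and the ONECUT factors are transcription factors that bind DNA through a homeodomain paired with a second DNA-binding domain, and 8 of their genes were followed here by their symbols, POU2F1, POU2F3, POU3F1, POU3F2, POU3F3, POU4F1, ONECUT1 and ONECUT2, among the 56831 genes listed for each cell line. The data are RNA-seq values of H82 and H146, established small cell lung cancer (SCLC) lines that the labels give as wild type. Untreated cells (3 libraries per line) were compared with cells kept for 14 days in 100 nM FHD-286, an inhibitor of the SMARCA4 and SMARCA2 ATPases of the BAF chromatin remodeling complex, in 3 libraries of H82 and 4 of H146. The comparison was made within each line, and asks how inhibition of SMARCA4/2 alters gene expression in a line of the SCLC-N subtype (H82) and in 1 of the SCLC-A subtype (H146). No vehicle is named for the untreated cells, each condition stands for a single line at a single dose and time, and nothing states that the libraries of a group came from separate cultures, so the p values measure only the spread between these libraries.

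POU factors recognize octamer-like DNA through a POU-specific domain joined to a POU homeodomain. POU2F1 (OCT1) is present in most tissues, whereas POU2F3 (OCT11) is the lineage factor of tuft cells and defines the SCLC-P subtype. The POU3F class (OCT6, BRN2 and BRN1) acts in neural progenitors, Schwann cells and other neural cells, and POU4F1 (BRN3A) acts in sensory neurons. ONECUT factors pair a single cut domain with a divergent homeodomain and act in liver, pancreas, retina and motor neurons. Several of these genes are therefore read as neural or neuroendocrine (NE) lineage genes in SCLC.

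Values are TPM, in which reads are divided by gene length and each library is scaled to the same sum, and read depth is unknown. TPM can be compared between genes, but a level set across H82 and H146 comes from 2 separately deposited tables and was not tested. Between 15554 and 16633 genes reached 1 TPM in treated H82 against 21227 to 21772 in untreated H82, and in H146 the ranges were 18778 to 19309 with treatment and 17476 to 17965 without. The mitochondrial share of TPM was 22.1% to 24.1% in untreated and 12.3% to 14.9% in treated H82, and 7.56% to 8.86% in untreated and 3.82% to 11.4% in treated H146. Of 6 NE markers, all 6 reached a mean of 1 TPM in H82 and 5 did in H146 (NEUROD1 did not). Their sum was 700 to 781 TPM in untreated H82 and 266, 736 and 438 TPM in treated replicates 1, 2 and 3, and it was 1441 to 1751 TPM in untreated and 1030 to 1289 TPM in treated H146, without overlap. Over genes above 1 TPM in both libraries of a pair, treated replicate 1 of H82 differed most from the other treated libraries. Its median absolute log2 ratio was 0.555 to replicate 2 and 0.544 to replicate 3, against 0.172 between replicates 2 and 3. Treated replicate 2 of H82 stood apart in another way, with 63.4 TPM summed over 5 epithelial markers. That sum was 14.2 TPM in treated replicate 1, 8.02 TPM in treated replicate 3 and at most 3.41 TPM in untreated H82. The same sum was 1353 to 1377 TPM in untreated and 522 to 590 TPM in treated H146. Fibroblast markers (5 genes) summed to at most 2.5 TPM in untreated H82 and to between 7.92 and 33.3 TPM in the treated libraries, with the highest value in replicate 3. The part of these markers and of the mitochondrial share in the results was not tested, and in bulk RNA fewer expressing cells and less RNA per cell cannot be told apart.

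Changes are log2 fold changes of log2(TPM + 1) from limma, treated over untreated, two-sided, with p values adjusted by Benjamini-Hochberg (BH) across every gene fitted in the line and a threshold of 0.05. To be tested, a gene had to reach 1 TPM in 3 or more of the line's libraries, which 5 of the 8 genes did in H82 and 6 did in H146. Among the tested genes of H82, 17.2% reached 1 TPM in treated or in untreated libraries only, as did 8.68% of those of H146. A gene of this kind passed the filter through the group where it was high and so had to differ, and each one named is marked as such and lends no support through its p value. Of the 5 tested in H82, POU4F1, POU3F1 and POU3F2 were higher and POU2F1 and ONECUT2 were lower, whereas 13.1% of all tested genes were higher and 45.5% were lower. Without treated replicate 2, only POU4F1 was still past the threshold among the 3 higher genes, and the same was true when any 1 of the untreated libraries was left out. Of the 6 tested in H146, POU4F1, ONECUT1 and POU2F1 were higher and POU3F1 was lower, against 32.5% of all genes higher and 15.5% lower. POU4F1 passed the filter there only through treated libraries. Without genes so selected, 2 of 5 were higher and 1 was lower, against 30% and 14.6% of all genes. Over all tested genes the median log2 fold change stood at -0.56 for H82 and 0.25 for H146, and scaling the libraries by the median of ratios brought these medians to -0.14 and -0.02, so the distance of each gene from the median is given where it bears on its direction.

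**Figure D1:**
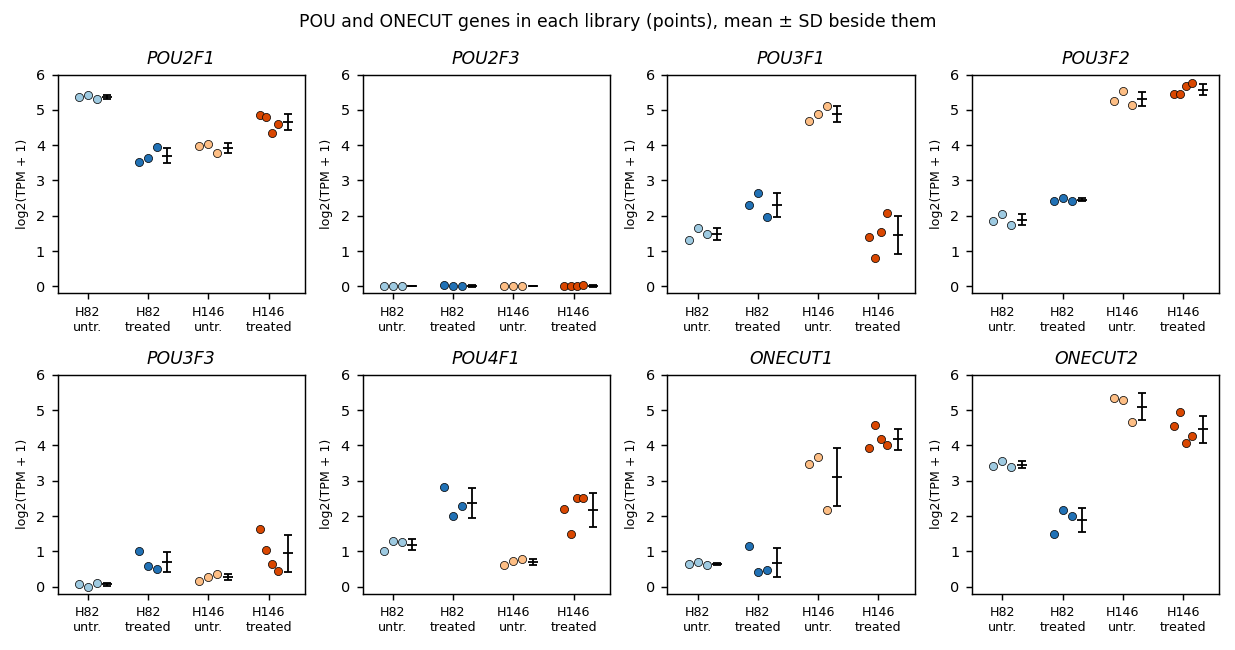
Level of each of the 8 genes in every library, as log2(TPM + 1) on a common axis, with points for the libraries of the 4 groups and the mean with its SD as a bar beside them. POU3F1 fell to a mean of 1.88 TPM in treated H146, POU2F1 moved in opposite directions in the 2 lines, and POU2F3 lay at or near 0 everywhere.

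In untreated H82, POU2F1 had the highest level (40.1 ± 1.73 TPM, SD, n = 3), followed by ONECUT2 (9.98 ± 0.795 TPM), POU3F2, POU3F1, POU4F1 and ONECUT1, and no 2 neighbours in this order had overlapping ranges. With treatment POU2F1 was still the highest, and POU3F2, POU4F1, POU3F1 and ONECUT2 overlapped, each with its neighbour, at means between 4.47 and 2.76 TPM. In untreated H146 the highest were POU3F2 (39.0 ± 5.57 TPM), ONECUT2 (34.0 ± 8.52 TPM) and POU3F1 (28.9 ± 4.64 TPM), whose neighbouring ranges overlapped, above POU2F1 and ONECUT1. In treated H146, POU3F2 stood alone at the top, POU2F1, ONECUT2 and ONECUT1 overlapped in turn below it, and POU3F1 had dropped to the sixth place, overlapping both POU4F1 above it and POU3F3 below it.

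POU2F1 (ENSG00000143190.23, chromosome 1, 167220876 to 167427345 in hg38, plus strand) encodes the widely expressed octamer factor OCT1. In H82 it was at 39.8, 42.0 and 38.6 TPM in the untreated libraries and at 10.5, 11.5 and 14.4 TPM in the treated ones. Every treated library lay below every untreated one, and the mean level was 3.31-fold lower. The log2 fold change was -1.66 (standard error 0.16, 95% interval -2.04 to -1.28, limma BH-adjusted p = 0.000311), which is 1.10 below the median of all genes. In H146 the order was turned. POU2F1 was at 14.7, 15.4 and 12.6 TPM without treatment and at 28.1, 27.0, 19.5 and 23.4 TPM with it, again with no overlap, and the mean was 1.72-fold higher. The log2 fold change of 0.73 (standard error 0.16, interval 0.37 to 1.10, limma BH-adjusted p = 0.00622) became 0.43 under the median of ratios and was then not past the threshold (limma BH-adjusted p = 0.0644).

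RefSeq lists 3 start sites of POU2F1 in GRCh38.p14. The 300 bases around the most downstream one (250 before the start and 50 after it) are shown because they hold the octamer ATGCAAAT, the DNA word that POU2F factors bind. In capitals are the octamer, which reads ATTTGCAT on this strand and begins 179 bases before the start, and the E-box CAGCTG, a word bound by basic helix-loop-helix factors, which begins 123 bases before it.
POU2F1, chr1:167328820-167329119, plus strand: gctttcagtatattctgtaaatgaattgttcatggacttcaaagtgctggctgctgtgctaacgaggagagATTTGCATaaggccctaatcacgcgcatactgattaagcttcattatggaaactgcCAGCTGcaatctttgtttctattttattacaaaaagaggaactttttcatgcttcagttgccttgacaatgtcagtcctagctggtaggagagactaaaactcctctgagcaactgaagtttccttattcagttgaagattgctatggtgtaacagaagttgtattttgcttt
Of 35116 such windows over all genes, 1.77% hold the octamer in either orientation and 17.9% hold CAGCTG. This window had 39.0% G and C and 3 CpG, against 67.7% and 29 CpG in the 2 windows at the upstream starts, which differ in position by 1 base and hold none of the words searched. Another word searched on both strands, ATCGAT, is bound by ONECUT factors and is in 0.763% of all windows. A related word, ATCAAT, is in 6.26% of them, and the E-box CAGATG is in 14.7%. None of the 5 words contains another, and the last 3 were in no window of the 7 genes that have one. The values are per gene, so which start was used was not measured.

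POU2F3 (ENSG00000137709.10, chromosome 11, 120236640 to 120319945, plus strand), the tuft cell factor, was listed at 0 in 5 of the 6 H82 libraries and in 5 of the 7 H146 libraries. The other values were 0.0180 TPM in treated replicate 1 of H82, 0.0131 TPM in untreated replicate 3 of H146 and 0.0301 TPM in treated replicate 4 of H146. It was below the filter in both lines, and a gain of this gene with FHD-286 was not detectable in either (exact permutation p = 1 in both, two-sided).

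POU3F1 (ENSG00000185668.8, chromosome 1, 38043829 to 38046793, minus strand) is a gene of 1 exon that encodes OCT6, known from Schwann cells and the epidermis. In H146 it was at 24.5, 28.4 and 33.8 TPM without treatment and at 1.61, 0.731, 1.92 and 3.25 TPM with it. The mean of 28.9 ± 4.64 TPM (SD, n = 3) became 1.88 ± 1.05 TPM (SD, n = 4), which is 15.4-fold lower, and the highest treated value was far under the lowest untreated one. The log2 fold change of -3.44 (standard error 0.29, interval -4.10 to -2.78, limma BH-adjusted p = 7.23e-05) was the largest change among the 8 genes, and 0.408% of all tested genes had a lower value. It lay between -3.65 and -3.22 when each library was left out in turn. In H82, where the gene was low, it was at 1.49, 2.14 and 1.78 TPM without treatment and at 3.94, 5.21 and 2.92 TPM with it. The groups did not overlap, the ratio of the means was 2.23, and the log2 fold change was 0.82 (standard error 0.24, limma BH-adjusted p = 0.0212), 1.38 above the median of all genes. Without treated replicate 2, the highest of these libraries, it was 0.66 and missed the threshold (limma BH-adjusted p = 0.0637). Leaving out untreated replicate 1, 2 or 3 gave limma BH-adjusted p = 0.1, 0.0513 and 0.0823.

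The promoter window of POU3F1 is shown as that of the gene with the largest change. It had the highest G and C content of the windows of these genes (82.3%, with 49 CpG, against medians of 58.7% and 14 over all windows) and held none of the 5 words, so no letters are in capitals.
POU3F1, chr1:38046744-38047043, minus strand: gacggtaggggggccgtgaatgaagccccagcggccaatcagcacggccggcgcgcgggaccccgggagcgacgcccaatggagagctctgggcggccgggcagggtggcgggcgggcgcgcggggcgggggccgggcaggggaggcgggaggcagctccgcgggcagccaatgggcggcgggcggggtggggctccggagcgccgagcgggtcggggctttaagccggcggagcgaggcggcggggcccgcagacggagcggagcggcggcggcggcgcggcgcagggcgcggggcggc

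POU3F2 (ENSG00000184486.10, chromosome 6, 98834574 to 98839458, plus strand) encodes BRN2, a neural progenitor factor. In H146 it was high with and without treatment, at 37.4, 45.2 and 34.5 TPM in untreated and 42.6, 42.5, 49.6 and 52.7 TPM in treated libraries, and the groups overlapped. Its log2 fold change of 0.26 (interval -0.06 to 0.58, limma BH-adjusted p = 0.155) was 0.01 from the median of all genes and was -0.05 under the median of ratios (limma BH-adjusted p = 0.735). In H82 it was at 2.59, 3.14 and 2.35 TPM without treatment and at 4.36, 4.66 and 4.39 TPM with it, without overlap. The log2 fold change there was 0.57 (standard error 0.19, interval 0.13 to 1.01, limma BH-adjusted p = 0.0327). It was not past the threshold without treated replicate 2 (0.55, limma BH-adjusted p = 0.0817), without treated replicate 3 (0.58, limma BH-adjusted p = 0.0752) or without untreated replicate 1, 2 or 3 (limma BH-adjusted p = 0.127, 0.0517 and 0.147).

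POU3F3 (ENSG00000198914.5, chromosome 2, 104853287 to 104858574, plus strand), which encodes BRN1 of the developing forebrain and kidney, was below the filter in both lines. In H82 it was at 0.0626, 0 and 0.0668 TPM without treatment and at 1.01, 0.498 and 0.416 TPM with it. In H146 it was at 0.126, 0.219 and 0.285 TPM without treatment and at 2.12, 1.04, 0.560 and 0.359 TPM with it. Treated and untreated libraries did not overlap in either line, and the mean log2(TPM + 1) differed by 0.64 in H82 (exact permutation p = 0.1) and 0.67 in H146 (exact permutation p = 0.0571). These are the smallest values that a two-sided exact test of 3 against 3 and of 3 against 4 libraries can give, so this test could not pass the threshold. In the limma fit with no filter beyond a TPM above 0, the H82 value of 0.64 passed it (limma BH-adjusted p = 0.0283).

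POU4F1 (ENSG00000152192.8, chromosome 13, 78598362 to 78603552, minus strand), which encodes the sensory neuron factor BRN3A, was higher in both lines. In H82 it was at 1.01, 1.43 and 1.40 TPM without treatment and at 6.10, 2.99 and 3.87 TPM with it. In H146 it was at 0.531, 0.654 and 0.71 TPM without treatment and at 3.58, 1.83, 4.69 and 4.67 TPM with it. There was no overlap in either line, and the means rose 3.38-fold in H82 and 5.84-fold in H146. The log2 fold changes were 1.19 in H82 (standard error 0.26, limma BH-adjusted p = 0.00707) and 1.47 in H146 (standard error 0.26, limma BH-adjusted p = 0.00264), which are 1.75 and 1.22 above the medians of all genes. In H146 the gene passed the filter only through the treated libraries. Since 1 TPM was added to values of this size, the changes are compressed, and with 0.1 TPM added they were 1.64 and 2.29. Without treated replicate 2 of H82 the value was 1.37 (limma BH-adjusted p = 0.00755). Without treated replicate 1 of H82, which held the highest level, it was 0.96 (limma BH-adjusted p = 0.00829). RNF219-AS1, a transcript on the other strand that spans POU4F1, was at 0.237 ± 0.0605 TPM in treated H146 and lower in the other groups. Whether reads were counted by strand is not given in the sources used here, so reads of this pair cannot be told apart.

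The promoter windows of POU4F1 and ONECUT2 are shown because they share the E-box CAGCTG, in capitals, which begins 115 and 93 bases before their starts.
POU4F1, chr13:78603503-78603802, minus strand: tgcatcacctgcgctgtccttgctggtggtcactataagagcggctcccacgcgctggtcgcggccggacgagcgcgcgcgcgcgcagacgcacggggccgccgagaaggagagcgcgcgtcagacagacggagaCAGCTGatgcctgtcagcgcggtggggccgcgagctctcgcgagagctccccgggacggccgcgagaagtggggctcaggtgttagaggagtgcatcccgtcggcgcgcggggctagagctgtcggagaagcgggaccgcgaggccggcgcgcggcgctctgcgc
ONECUT2, chr18:57435124-57435423, plus strand: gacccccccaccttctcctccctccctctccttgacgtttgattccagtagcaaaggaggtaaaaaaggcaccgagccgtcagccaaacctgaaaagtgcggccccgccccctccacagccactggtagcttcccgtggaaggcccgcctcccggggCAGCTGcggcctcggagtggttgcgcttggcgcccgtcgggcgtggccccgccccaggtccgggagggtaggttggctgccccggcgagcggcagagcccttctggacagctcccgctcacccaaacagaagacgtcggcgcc
A match of 6 letters is a description of the sequence and marks no bound site. The windows of POU3F2, POU3F3 and ONECUT1 held none of the 5 words. POU2F3 is not in the promoter table.

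ONECUT1 (ENSG00000169856.9, chromosome 15, 52755053 to 52791078, minus strand) encodes HNF6, a factor of liver and pancreas. In H146 it was at 10.1, 11.8 and 3.51 TPM without treatment and at 14.1, 22.8, 17.1 and 15.2 TPM with it. All treated libraries were above the untreated ones, and untreated replicate 3 was low. The log2 fold change was 1.06 (standard error 0.35, interval 0.26 to 1.86, limma BH-adjusted p = 0.0347). Without untreated replicate 3 it was 0.60 and not past the threshold (limma BH-adjusted p = 0.0686), nor was it past the threshold without treated replicate 2 or 3 or under the median of ratios (0.78, limma BH-adjusted p = 0.0938). In H82 the gene was below the filter, with 0.548, 0.606 and 0.532 TPM in untreated and 1.21, 0.324 and 0.398 TPM in treated libraries, and the groups overlapped (exact permutation p = 1).

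ONECUT2 (ENSG00000119547.6, chromosome 18, 57435374 to 57491298, plus strand), the paralog of ONECUT1 with the higher level in every library except treated replicate 3 of H146, was at 9.60, 10.9 and 9.45 TPM in untreated H82 and at 1.82, 3.47 and 2.98 TPM in treated H82. The groups were far apart, the mean was 3.62-fold lower, and the log2 fold change was -1.57 (standard error 0.23, interval -2.11 to -1.03, limma BH-adjusted p = 0.00127). It remained past the threshold under quantile normalization, where its size was -0.73 (limma BH-adjusted p = 0.0453). The untreated H146 libraries held 39.8, 38.1 and 24.2 TPM and the treated ones 22.5, 30.0, 15.8 and 18.3 TPM, and the groups overlapped because untreated replicate 3 was low. The log2 fold change of -0.64 (standard error 0.25, limma BH-adjusted p = 0.0627) did not pass the threshold. It did so under the median of ratios (-0.94, limma BH-adjusted p = 0.0167) and without untreated replicate 3 (-0.86, limma BH-adjusted p = 0.037).

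**Figure D2:**
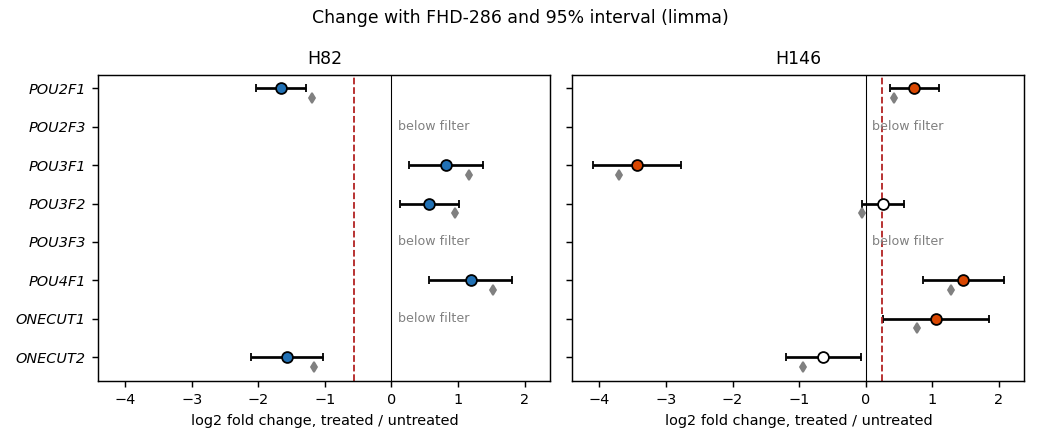
Log2 fold change of each gene, treated over untreated, in H82 (left) and H146 (right), with the limma 95% interval as a bar. Filled circles passed an adjusted p of 0.05, grey diamonds give the value under the median of ratios, and the dashed line is the median of all tested genes. POU2F1 and POU3F1 lie on opposite sides of 0 in the 2 lines and POU4F1 lies above 0 in both.

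To compare the changes of both lines, a term for line by treatment was fitted over all 13 libraries, and this term was past the threshold for 59.3% of 24374 genes, with a median of -0.75 (change in H82 minus change in H146). Of the 8 genes, 7 could be tested and 3 were past the threshold. POU3F3 passed the filter of this fit only through treated libraries, and its difference was -0.03 (limma BH-adjusted p = 0.952). POU3F1 differed by 4.26 (standard error 0.40, interval 3.4 to 5.12, limma BH-adjusted p = 4.55e-06) and POU2F1 by -2.39 (standard error 0.22, interval -2.87 to -1.92, limma BH-adjusted p = 4.28e-06). Both were past the threshold under every alternative that was run. ONECUT2 differed by -0.94 (limma BH-adjusted p = 0.0356), close to the median of all genes, and under the median of ratios by -0.24 (limma BH-adjusted p = 0.593). For POU4F1 the difference was -0.28 with an interval of -1.11 to 0.54 (limma BH-adjusted p = 0.536). For POU3F2 it was 0.31 with an interval of -0.13 to 0.75 (limma BH-adjusted p = 0.2). Neither was past the threshold, and differences within these intervals remain compatible with the values. Under the median of ratios the difference for POU3F2 was 1.02 (limma BH-adjusted p = 0.000349). The POU4F1 difference passed the threshold in opposite directions in 2 settings. It was 1.02 under quantile normalization (limma BH-adjusted p = 0.0293) and -0.70 with library weights (limma BH-adjusted p = 0.0192).

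Next, the TPM of the genes of each class were summed, as paralogs recognize similar DNA. The POU3F sum in H146 was 68.1 ± 5.94 TPM untreated (SD, n = 3) and 49.8 ± 5.46 TPM treated (SD, n = 4; exact permutation p = 0.0571, the smallest possible) while its make-up shifted. POU3F1 gave 38.5% to 49.3% of it without treatment and 1.65% to 5.78% with it, and POU3F2 gave 50.3% to 61.2% and 91.8% to 95.9%. In H82 the POU3F sum was far lower and went from 4.57 ± 0.606 to 9.15 ± 1.33 TPM (SD, n = 3 and 3; exact permutation p = 0.1, the smallest possible), with POU3F1 and POU3F2 both giving large parts before and after. The ONECUT sum went from 10.6 ± 0.854 to 3.4 ± 0.377 TPM in H82. In H146 it overlapped between the groups (42.5 ± 12.8 and 39.0 ± 9.36 TPM; exact permutation p = 0.743), but ONECUT1 gave 12.7% to 23.6% of it without treatment and 38.5% to 51.9% with it, without overlap. The POU2F sum went from 48.5 ± 2.23 to 13.6 ± 1.63 TPM in H82 and was 22.7 ± 1.66 and 27.7 ± 2.97 TPM in H146 (exact permutation p = 0.114), where the share of POU2F1 was 59.5% to 65.4% without treatment and 82.2% to 94.5% with it. The POU4F sum in H82 overlapped between the groups (6.0 ± 0.681 and 6.98 ± 2.89 TPM; exact permutation p = 0.9), and within it POU4F1 gave 15.2% to 26.9% without treatment and 59.5% to 64.7% with it. In H146 the POU4F sum went from 1.81 ± 0.146 to 6.21 ± 1.95 TPM without overlap (exact permutation p = 0.0571, the smallest possible).

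**Figure D3:**
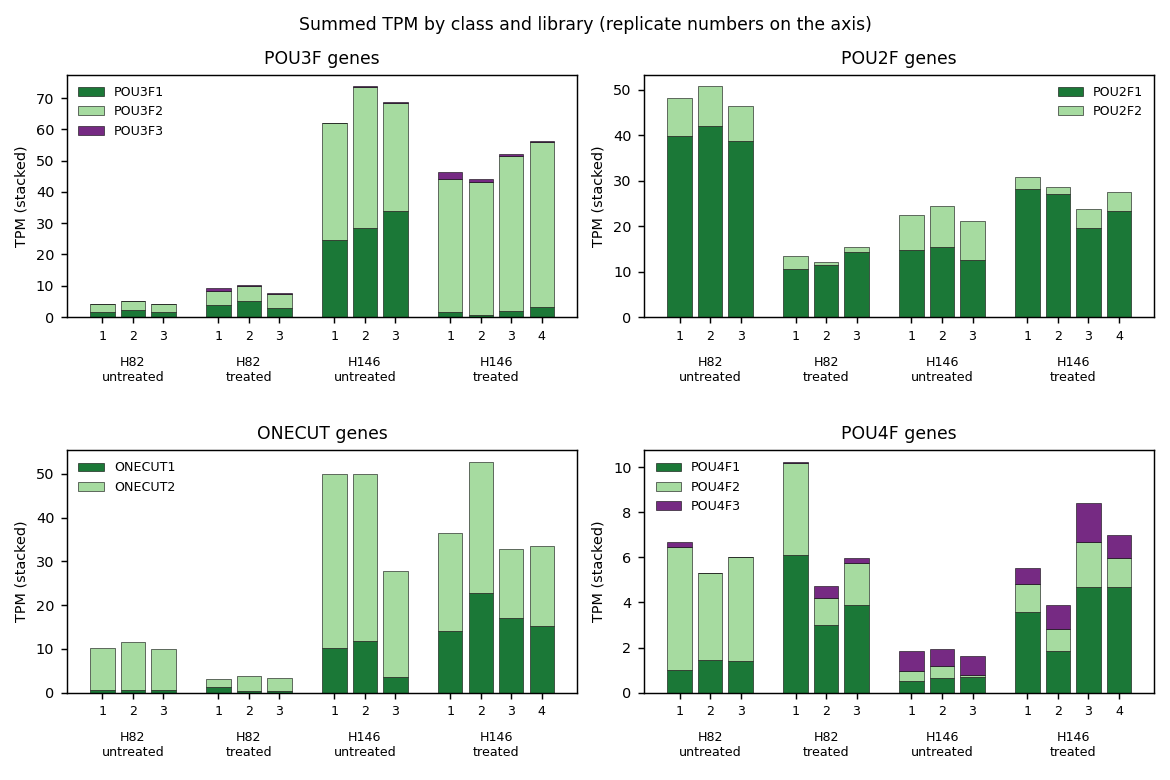
Summed TPM of the POU3F, POU2F, ONECUT and POU4F genes in each library, as stacked bars from 0 with 1 color per gene (genes of a class that stayed under 0.1 TPM in every library are left out), by group and replicate number. The dark POU3F1 part is nearly gone from treated H146 (at most 5.78% of the sum), and POU4F1 replaces POU4F2 as the main part in treated H82.

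The other genes of both classes were then examined (14 genes; 7 tested in each line). In H82, 5 were lower and none was higher, beside 45.5% and 13.1% of all tested genes. Their median log2 fold change was -0.98 (-0.56 over all genes). In H146, 1 was lower and 2 were higher, beside 15.5% and 32.5% of all tested genes, with a median of 0.31 against 0.25. POU4F2 and POU4F3 passed the filter there only through treated libraries. Without genes so selected, 1 of 5 was lower and 1 was higher, against 14.6% and 30% of all genes. POU2F2 (OCT2), the B cell octamer factor, was the only gene of this list that was past the threshold and lower in both lines, which under the median of ratios was also true of HDX (-0.55 in H146, limma BH-adjusted p = 0.0401). POU2F2 was at 8.46, 8.78 and 7.74 TPM in untreated and 2.87, 0.597 and 0.914 TPM in treated H82 (log2 fold change -2.03, limma BH-adjusted p = 0.00232), and at 7.77, 9.12 and 8.58 TPM in untreated and 2.71, 1.57, 4.22 and 4.13 TPM in treated H146 (log2 fold change -1.24, limma BH-adjusted p = 0.00535). The treated libraries lay under the untreated ones in both lines, and POU2F2 thus fell in H146 where POU2F1 rose.

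In H82 the further falls were those of POU6F1 (-1.46), POU5F1B (-1.04), CUX1 (-0.98) and HDX (-0.93), all within 1 log2 unit of the median of all genes. Under quantile normalization POU6F1 (-0.44) and POU5F1B (-0.42) were not past the threshold. POU5F1B is a near copy of POU5F1, so its reads may be shared, and HDX was at 0.10 under quantile normalization. POU4F2 (BRN3B, of retinal ganglion cells) was at -0.82 in H82 and not past the threshold (limma BH-adjusted p = 0.0706), while in H146 it was higher from a low level (0.344 ± 0.230 TPM without and 1.37 ± 0.427 TPM with treatment; log2 fold change 0.82, limma BH-adjusted p = 0.014) and passed the filter only through treated libraries, as did POU4F3. Leaving out treated replicate 1 of H82 gave -1.16 (limma BH-adjusted p = 0.00499), and leaving out untreated replicate 3 of H146 gave 0.67 (limma BH-adjusted p = 0.0697). SATB1, a chromatin organizer with cut-like domains, went from 6.86 ± 1.61 to 21.2 ± 0.165 TPM in H146 (log2 fold change 1.52, limma BH-adjusted p = 0.000235) and missed the threshold in H82 (0.27, limma BH-adjusted p = 0.259) except under the median of ratios and quantile normalization (0.66 and 1.20; for the former, limma BH-adjusted p = 0.0218). In H146 CUX1 (0.31), POU6F1 (0.39), POU4F3 (0.21) and HDX (-0.30) were not past the threshold.

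**Figure D4:**
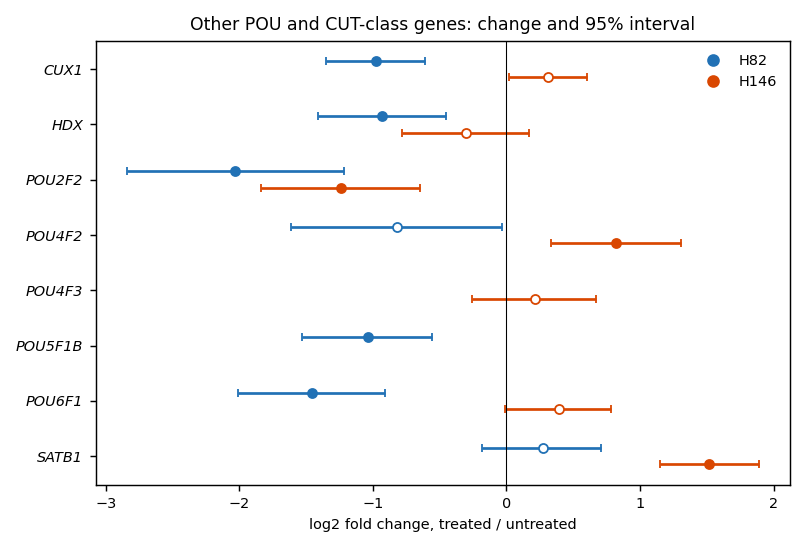
Log2 fold change of the other POU and CUT-class genes that were tested, with limma 95% intervals, in H82 (blue) and H146 (orange); filled circles passed an adjusted p of 0.05. POU2F2 lies below 0 in both lines, while POU6F1 and CUX1 are past the threshold below 0 in H82 and not past it, above 0, in H146.

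Genes tied to these factors by general knowledge were listed to set beside them. Their counts are to be read against the shares of all tested genes, 13.1% higher and 45.5% lower in H82 and 32.5% higher and 15.5% lower in H146. Of 9 partners of octamer factors, 7 were tested in H82 (2 higher, 4 lower) and 8 in H146 (3 higher, 3 lower). POU2AF1, the coactivator of POU2F1 and POU2F2 in B cells, had the largest fall of this list in H82, from 2.87, 3.88 and 2.59 TPM to 0.806, 0.281 and 0.310 TPM (log2 fold change -1.50, limma BH-adjusted p = 0.00167), but was not past the threshold under quantile normalization (-0.37, limma BH-adjusted p = 0.177). It was lower in H146 as well (-1.01, limma BH-adjusted p = 0.0016). In both lines it passed the filter only through untreated libraries. Without it 2 of 6 were higher and 3 were lower in H82, against 13.7% and 36.5% of all genes not so selected. In H146, 3 of 7 were then higher and 2 were lower, against 30% and 14.6%. SNAPC2, a subunit of the complex that reads small nuclear RNA promoters together with POU2F1, was higher in H82 (1.11, limma BH-adjusted p = 0.00481) and had the largest fall of the list in H146 (-1.06, limma BH-adjusted p = 0.000449). HCFC1, the cofactor that joins POU2F1 on viral promoters, had the largest rise in H146 (1.43, limma BH-adjusted p = 0.00246) and was lower in H82.

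Of 14 tuft cell genes, 5 were tested in H82 (all 5 lower, median log2 fold change -1.22 against -0.56 over all genes) and 7 in H146 (2 higher, 2 lower, median -0.12 against 0.25). AVIL and PTGS1 in H82 passed the filter only through untreated libraries, which leaves 3 genes, all lower, where 36.5% of all genes that were not so selected were lower. Without GNAT3 in H146, which passed it only through treated libraries, 1 of 6 was higher and 2 were lower, against 30% and 14.6%. AVIL, an actin-binding protein of tuft cells, had the largest fall in H82, from 7.15 ± 0.428 to 0.378 ± 0.173 TPM (log2 fold change -2.57, limma BH-adjusted p = 0.000155). In H146 GNAT3, the taste G protein gustducin, rose from 0.0833, 0 and 0 TPM to 3.70, 2.39, 6.85 and 7.69 TPM (2.48, limma BH-adjusted p = 0.000615; filter passed only through treated libraries), and IL17RB, an interleukin receptor chain, had the largest fall of these genes, from 32.2 ± 1.71 to 11.9 ± 2.35 TPM (-1.38, limma BH-adjusted p = 0.000331). POU2F3 itself was at or near 0 in these same libraries.

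Of 8 neural genes tied to POU3F factors, 3 of 5 tested were higher and 1 was lower in H82, and 4 of 7 were higher and 1 was lower in H146. Without SOX2, which passed the filter in H82 only through treated libraries, 2 of 4 were higher and 1 was lower there. Of all genes not so selected in H82, 13.7% were higher and 36.5% were lower. NES (nestin, an intermediate filament of neural progenitors and a known target of POU3F2) was lower in H82, from 38 ± 3.05 to 2.82 ± 0.203 TPM (-3.35, limma BH-adjusted p = 6.75e-05), and in H146 (-0.63, limma BH-adjusted p = 0.0285), where it missed the threshold without untreated replicate 2 or 3 or treated replicate 3 or 4 (limma BH-adjusted p = 0.0959, 0.101, 0.0681 and 0.063). SOX2, a progenitor factor, had the largest rise in H82 (3.28, limma BH-adjusted p = 0.0387), but from values of 3.99, 71.6 and 1.73 TPM in the treated libraries, so the level came mostly from replicate 2. It passed the filter only through the treated libraries, and the value missed the threshold without any 1 of the untreated libraries (limma BH-adjusted p = 0.087, 0.11 and 0.0896). FABP7, a lipid carrier of radial glia, had the largest rise in H146, with 1.74 ± 0.210 TPM untreated and 66.1 ± 7.34 TPM treated (log2 fold change 4.61, limma BH-adjusted p = 1.14e-06).

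Of 10 sensory neuron genes tied to POU4F1, 1 of 5 tested was higher and 3 were lower in H82, and 1 of 8 was higher and 3 were lower in H146. ISL1, a LIM homeodomain factor that works with POU4F1 in sensory neurons, was the gene that was higher in both lines. It was at 0.266, 0.180 and 0.497 TPM in untreated and 7.59, 27.4 and 7.66 TPM in treated H82 (3.29, limma BH-adjusted p = 0.00122), with the highest value in treated replicate 2 and the filter passed only through treated libraries. In H146 it was at 27.1 ± 3.10 and 72.0 ± 29.3 TPM (1.29, limma BH-adjusted p = 0.00803). The treated H146 libraries were at 46.8, 46.3, 97.8 and 96.9 TPM. The largest falls were those of INA, a neurofilament protein, in H82 (-1.74, limma BH-adjusted p = 0.0366, but limma BH-adjusted p = 0.097 under the median of ratios and 0.0803, 0.116, 0.082 and 0.0815 without untreated replicate 1, 2 or 3 or treated replicate 3) and of RET, a receptor tyrosine kinase, in H146 (-3.02, limma BH-adjusted p = 7.28e-06), which passed the filter only through untreated libraries. Without the genes so selected, none of 4 was higher and 3 were lower in H82, against 13.7% and 36.5% of all genes not so selected. In H146, 1 of 7 was then higher and 2 were lower, against 30% and 14.6%.

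Of 11 endoderm and retina genes tied to ONECUT factors, 2 of 5 tested were higher and 1 was lower in H82, and 2 of 8 were higher and 3 were lower in H146. In each line 1 of the higher genes (FOXA2 in H82, LHX1 in H146) passed the filter only through treated libraries. Without it 1 of 4 was higher and 1 was lower in H82, against 13.7% and 36.5% of all genes not so selected. In H146, 1 of 7 was then higher and 3 were lower, against 30% and 14.6%. TTR (transthyretin, a liver protein and a known ONECUT1 target) was at 0.794, 0.477 and 1.04 TPM in untreated and 31.5, 59.1 and 67.2 TPM in treated H82 (4.86, limma BH-adjusted p = 0.000121), in which ONECUT1 was at most at 1.21 TPM and ONECUT2 fell. THRB, a thyroid hormone receptor, had the largest fall there (-1.11, limma BH-adjusted p = 0.00725), was at 0.02 under quantile normalization and missed the threshold without untreated replicate 1 or 2 (limma BH-adjusted p = 0.06 and 0.0558). In H146 the largest rise was that of FOXA1 (1.43, limma BH-adjusted p = 0.000324) and the largest fall that of PROX1 (-1.18, limma BH-adjusted p = 0.00658), both endoderm factors.

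The genes within 100000 bases of the 8 genes were also examined, to set each change beside those of its neighbours. Of 20 found by symbol, 13 were tested in H82 (3 higher, 4 lower) and 14 in H146 (6 higher, 3 lower), beside 13.1% and 45.5% of all genes in H82 and 32.5% and 15.5% in H146. OAF and ST8SIA3 passed the filter in H82 through 1 group only. Without them 2 of 11 were higher and 3 were lower there, against 13.7% and 36.5% of all genes not so selected. Around POU3F1, UTP11 and SF3A3 were not past the threshold in either line, FHL3 was lower in H146 (-1.03, limma BH-adjusted p = 0.000464), and INPP5B was lower in H82 (-0.88, but -0.45 and not past the threshold under the median of ratios, limma BH-adjusted p = 0.0861, nor under quantile normalization) and higher in H146 (0.49, limma BH-adjusted p = 0.0316, but 0.24 and not past the threshold under the median of ratios, limma BH-adjusted p = 0.197, nor without any 1 of the untreated libraries or treated replicate 3 or 4). Next to the silent POU2F3, OAF, 6306 bases away, rose from 0.393 ± 0.332 to 13.6 ± 1.18 TPM in H82 (3.41, limma BH-adjusted p = 0.000131; filter passed only through treated libraries), TMEM136 was higher in both lines (1.15 and 1.64), and ARHGEF12 was lower in H82 (-1.02, but -0.56 and not past the threshold under the median of ratios) and higher in H146 (0.90). At POU2F1, CD247, which lies on the other strand and overlaps its end, rose from 0.995 ± 0.162 to 6.11 ± 1.53 TPM in H146 (1.81, limma BH-adjusted p = 0.000312), so reads at the overlap cannot be assigned to either, and GPA33 fell there (-2.27, limma BH-adjusted p = 4.25e-05). At ONECUT2, ST8SIA3 was lower in H82 (-1.34, filter passed only through untreated libraries, and -0.15 and not past the threshold under quantile normalization) and higher in H146 (0.90). FECH was higher in both (0.75 and 0.46). In H146 FECH missed the threshold under 6 of 15 alternatives, among them those without untreated replicate 1 or 3 or treated replicate 3 or 4. FBXL4 beside POU3F2 was lower in H82 (-0.76, but -0.30 under the median of ratios and -0.20 under quantile normalization, not past the threshold in either), and RNF219 beside POU4F1 was lower in H146 (-0.78).

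The 3 genes most like each changed gene were taken as those with the smallest root mean square (RMS) difference of centred log2(TPM + 1) over the 13 libraries, among 24374 genes. For POU2F1 these were NFAT5, RAD54L2 and TRIO, at RMS differences of 0.15, 0.16 and 0.17 log2 units. RAD54L2, for example, had means of 33.3 and 9.59 TPM in untreated and treated H82 and of 9.66 and 17.9 TPM in H146. For POU3F1 they were HES6, TMEM171 and FKBP9L, with larger differences of 0.36, 0.37 and 0.37. HES6 had means of 154 and 262 TPM in untreated and treated H82 and of 1018 and 151 TPM in H146. For POU4F1 they were UROS (0.17), STOML1 (0.23) and UFSP1 (0.24), and UROS went from 11.1 to 27.1 TPM in H82 and from 6.66 to 20.5 TPM in H146. TSPAN8, SPAG6 and PAGE5 were closest to POU3F2 (0.19, 0.21 and 0.23), PATJ, EGFEM1P and ZNF141 to ONECUT1 (0.32, 0.35 and 0.35), and STXBP5L, FEM1C and IQGAP3 to ONECUT2 (0.20, 0.21 and 0.22). These are descriptions over libraries that share the same 4 groups.

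**Figure D5:**
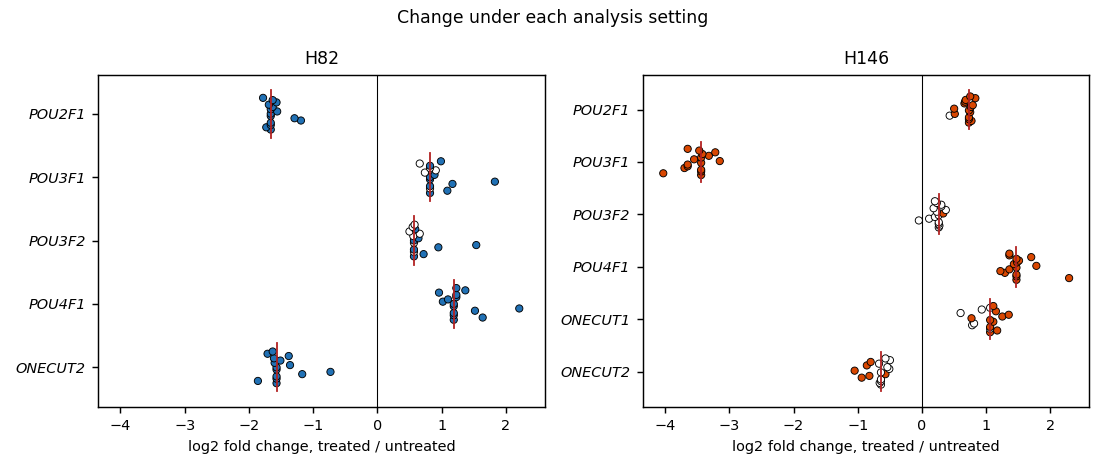
Log2 fold change of the tested genes in H82 (left) and H146 (right) under each analysis setting, 1 point per setting, filled where the adjusted p was under 0.05, with a red line at the reported value. POU2F1, POU4F1 and ONECUT2 in H82 and POU3F1 and POU4F1 in H146 are filled in every setting. POU3F1 and POU3F2 in H82 and POU2F1 (under the median of ratios) and ONECUT1 in H146 also have open points. POU4F1 in H146 passed the filter only through treated libraries, so its filled points under that filter lend no support.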

How the data were processed

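RNA-seq values of 13 libraries were analysed. The authors mapped reads and counted them per gene with STAR on hg38 with the GENCODE annotation, release 28, and deposited 1 TPM table per line. The submitters' processing notes also name Trim Galore 0.4.4. How TPM was derived from counts and whether strand was used is not given in the sources used here, and reads per library are unknown, so no counting interval is given. Each line was fitted with limma 3.58.1 (R 4.3.3; lmFit, eBayes with trend) on log2(TPM + 1), over genes with 1 TPM or more in 3 or more libraries, with Benjamini-Hochberg adjustment, and the lines were compared by an interaction term. The fit was tested on simulated data. Genes below the filter and class sums were compared with two-sided exact permutation tests of mean log2(TPM + 1) (scipy 1.17.1, Python 3.11.15). Alternatives were other pseudocounts, filters, scalings, a replicate block, eBayes without trend, library weights and each library left out.

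The genes, lists and tests were chosen with earlier results of these data known, and lists were described by counts and medians. Some genes were removed from the lists and are not reported here. Genes named were the 8 genes, other POU and CUT-class genes that were tested, the largest rise and fall of each other list, changed neighbours and the 3 most alike. Exceptions named after their values were seen were UTP11, SF3A3, RNF219-AS1, PTGS1, FOXA2, LHX1 and second-line values. Positions are from GENCODE release 44 and promoter windows from RefSeq (GRCh38.p14), in which 7 of the 8 genes were found. Protein sequences were not used here, and the authors' DESeq2 comparisons were not used.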

Additional observations from a re-analysis of the deposited data

Results flagged for a closer look

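POU3F1 was flagged because its change differed between the lines by the interaction test, by 4.26 log2 units (limma BH-adjusted p = 4.55e-06), being higher in 3 of 3 treated H82 libraries and lower in 4 of 4 treated H146 libraries than in any untreated library of the line. POU2F1 was flagged in the same way, with a difference of -2.39 (limma BH-adjusted p = 4.28e-06), being lower in 3 of 3 treated H82 libraries and higher in 4 of 4 treated H146 libraries. ONECUT2 was flagged with a difference of -0.94 (limma BH-adjusted p = 0.0356), which lies near the median of -0.75 over all genes and passed the threshold in some settings only. POU2F3 in treated H146 was flagged because 1 of the 4 libraries, at 0.0301 TPM, stood apart from the other 3, all listed at 0, so that its gap took the whole range (a ratio of 1). With 3 libraries at 0, any other value in the remaining one gives this ratio, so the flag was fixed by the zeros and carries no chance rate.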

How the results depend on the processing

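Of 18 tests of the 8 genes (11 within a line and 7 between the lines), 7 kept their direction and their side of the threshold under every alternative with a test: POU2F1, POU4F1 and ONECUT2 in H82, POU3F1 and POU4F1 in H146, and the difference between the lines for POU2F1 and POU3F1. Of these, POU4F1 in H146 passed the filter only through treated libraries, so its p value under that filter lends no support. With no filter beyond a TPM above 0, POU3F1 (0.82) and POU3F2 (0.57) in H82, ONECUT1 in H146 (1.06) and the ONECUT2 difference (-0.94) missed the threshold. More genes were adjusted for in this fit. POU3F3 in H82 (0.64), not tested otherwise by limma, passed it. Under the median of ratios POU2F1 (0.43) and ONECUT1 (0.78) in H146 missed it, ONECUT2 in H146 (-0.94) and the POU3F2 difference (1.02) passed it, POU3F2 in H146 (-0.05), the POU4F1 difference (0.29), the POU3F3 difference (0.23) and the POU2F sum in H146 (-0.04) changed sign, the ONECUT2 difference was -0.24, and of the 6 genes tested in H146 1 was higher and 2 were lower. Quantile normalization gave 0.81 for ONECUT1 and -0.82 for ONECUT2 in H146 (2 lower), differences of 1.45 for POU3F2, 0.74 for POU3F3, 1.02 for POU4F1 and 0.06 for ONECUT2, and turned HDX (0.10), POU4F2 (0.19) and THRB (0.02) in H82 and POU4F3 in H146 (-0.04). Library weights gave 0.33 for POU3F2 and -1.05 for ONECUT2 in H146 (2 lower), and differences of -0.70 for POU4F1, 0.05 for POU3F3 and -0.38 for ONECUT2. The POU4F1 difference passed the threshold under quantile normalization and with library weights, with opposite signs. A pseudocount of 0.1 gave 0.70 for the POU3F3 difference and -0.02 for ONECUT1 in H82. With nothing added, the log2 ratio of mean TPM was 1.16 for POU3F1, 0.73 for POU3F2, 1.76 for POU4F1 and -1.86 for ONECUT2 in H82, and -3.94 for POU3F1 and 2.55 for POU4F1 in H146. Apart from the size of the added constant, the cause of these shifts was not tested.

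Same-numbered libraries did not deviate together (correlations between -0.14 and 0.03 over 6 pairs), and differently numbered ones gave between -0.04 and 0.12. The numbers thus gave no sign of pairing, but this check cannot decide whether libraries shared a culture or harvest. With the replicate number as a block, POU3F2 in H82 (0.57) missed the threshold and ONECUT2 in H146 (-0.57) passed it (2 lower), and the genes called were 8625 lower and 2333 higher in H82 and 2377 lower and 4749 higher in H146. Leaving out each library in turn gave between 5967 and 13460 called genes in H82, between 6339 and 11209 in H146, and between 1 and 3 higher genes of the 8 in H82 and 1 and 2 lower ones in H146. The log2 fold changes then ranged from 0.66 to 0.99 for POU3F1 and from 0.50 to 0.66 for POU3F2 in H82, and from 0.60 to 1.35 for ONECUT1 and from -0.86 to -0.50 for ONECUT2 in H146. Differences ranged from -1.31 to -0.56 for ONECUT1, from -1.08 to -0.72 for ONECUT2 and from -0.19 to 0.07 for POU3F3. Below the filter, ONECUT1 in H82 ranged from -0.20 to 0.17 and POU2F3 in H146 from -0.00628 to 0.01, and the sums ranged from -0.14 to 0.35 for POU4F in H82 and from -0.37 to 0.04 for ONECUT in H146. Without some libraries SOX2, ISL1 and OAF in H82 no longer reached 1 TPM in 3 libraries and were not fitted. Libraries were few and read depth is unknown, and the part of each in the precision of these values was not tested.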
